A study of Mus musculus with 20 samples.

Results

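RNA from young mouse epidermis with floxed, Cre-targeted p53 alleles was set against RNA from young wild-type (WT) epidermis, over all genes of the deposited count table. The 6 libraries of this comparison, 3 labelled PKO and 3 labelled WT, were taken by their genotype and age labels from 20 libraries in the series. The PKO mice were K14cre;p53fl/fl: floxed Trp53 alleles, recombined by Cre under the keratin 14 promoter, which is active in basal keratinocytes and their descendants. The control mice are labelled wild type with no allele named, so whether they carried K14cre is not given in the labels. In these groups the cells were sorted for the tdTomato reporter from dissociated epidermis of mice 100 to 120 days old, and the labels call the libraries of a group biological replicates. The young groups K14cre;Wwoxfl/fl (WKO, n = 3) and K14cre;Wwoxfl/fl;p53fl/fl (DKO, n = 3) entered the same fit and serve here as further values. Libraries are written by group and replicate number, such as PKO 1.

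The p53 protein, encoded by Trp53, is a transcription factor that is kept low by the ubiquitin ligase Mdm2 and is stabilised when DNA is damaged or growth signals are excessive. It then switches on genes that halt the cell cycle, such as the cyclin-dependent kinase inhibitor Cdkn1a, genes that start apoptosis, such as Bax and Bbc3, and its own inhibitor Mdm2. In skin, p53 is best known for the response of keratinocytes to ultraviolet light, and its gene is often mutated in cutaneous squamous cell carcinoma. Its relative p63 (Trp63) maintains the basal layer.

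The 6 libraries held 12842557 to 16627171 counts, and 18682 (PKO 1) to 25735 (WT 3) genes had at least 1 count. Mitochondrially encoded RNA took 17.9% (PKO 3) to 43.3% (WT 3) of the counts. The first principal component of the 6 libraries carried 57.3% of the variance and placed PKO 1 and PKO 2 at 122 and 92.1, the WT libraries between -97.9 and -43.5, and PKO 3 at -17.4, nearer to WT than to the other PKO libraries. Across genes, PKO 3 had a Pearson r of 0.944 with WT 3 and of 0.879 with PKO 1. WT 1 stood apart in another way: Xist, which coats and silences an X chromosome in female cells, was at 0.231 CPM (counts scaled to a common library size) there and at 339 to 627 CPM in the other 5 libraries, and the Y-linked Eif2s3y was at 26.6 CPM there, against at most 1.93 CPM. Values without these libraries stand beside many of the results below. The labels name tdTomato-sorted cells of epidermis but no cell type. Basal keratins were present in every library, with Krt5 at no less than 523 CPM and Krt14 at no less than 410 CPM. Markers of T cells were present in each as well.

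Trp53 (ENSMUSG00000059552) had 563, 478 and 710 counts in WT 1 to 3 and 96, 259 and 402 in PKO 1 to 3. As CPM, scaled with trimmed mean of M-values (TMM) factors, it was at 32.5, 34.2 and 41.9 CPM in WT and at 6.23, 22.7 and 20.2 CPM in PKO. All PKO libraries lay below all WT libraries, but the PKO libraries kept 17.2%, 62.8% and 55.8% of the WT mean, so the loss of Trp53 RNA was far from even. Without TMM scaling PKO 1 to 3 were at 6.94, 18.1 and 26.5 CPM, so the order of PKO 2 and PKO 3 depended on the scaling while PKO 1 was the lowest in both. The means were 36.2 ± 5.02 CPM (SD, n = 3) in WT and 16.4 ± 8.89 CPM (SD, n = 3) in PKO. An exact two-sided permutation test gave p = 0.1, the smallest that 3 libraries against 3 allow, and the fitted log2 fold change was -1.14 (SE 0.67, adjusted p = 0.307). It was -0.71 without PKO 1 (adjusted p = 0.615), and limma voom with library quality weights gave -1.71, past the threshold at an adjusted p = 0.047. In WKO, Trp53 was at 41.6, 50.7 and 41.1 CPM, and in DKO at 3.47, 3.42 and 21.9 CPM. The table gives 1 value per gene, and the labels do not say which exons are floxed, so reads from exons outside the deleted stretch cannot be told apart from undeleted transcripts. In sorted bulk RNA, fewer cells of a type and less RNA per cell cannot be told apart either.

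Wwox (ENSMUSG00000004637), an oxidoreductase gene deleted in WKO and DKO but not in PKO, was at 10.6, 9.72 and 9.15 CPM in WT and at 9.34, 8.51 and 8.04 CPM in PKO. The groups overlapped (log2 fold change -0.19, SE 0.77, adjusted p = 0.897), with an exact two-sided permutation p = 0.2. The library labelled DKO 3 held 7.61 CPM of Wwox against 0.971 and 0.989 CPM in DKO 1 and 2, which goes against its label. That library remained in the fit.

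**Figure D1:**
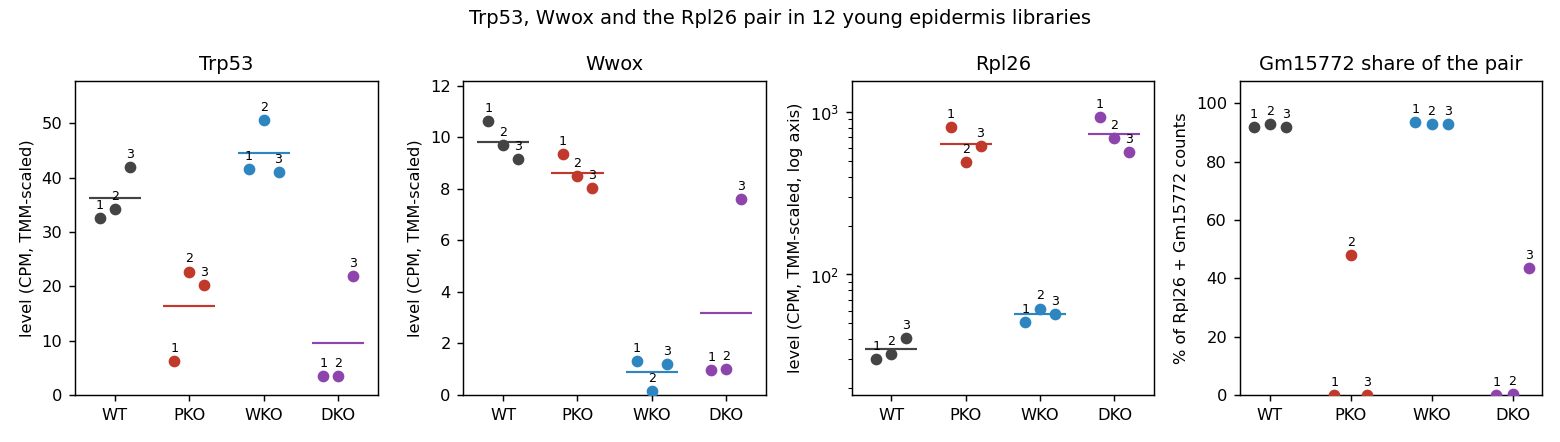
Levels of Trp53, Wwox and Rpl26 (CPM after TMM scaling, linear axes for the first pair and a log axis for Rpl26) and the share of the Rpl26 plus Gm15772 counts assigned to Gm15772 (%), in 12 young libraries. Points are libraries with their replicate number and horizontal lines are group means. PKO 1 holds 6.23 CPM of Trp53 and PKO 2 and 3 hold 22.7 and 20.2 CPM, and the Gm15772 share is 47.9% in PKO 2 and under 1% in PKO 1 and 3.

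Across 16627 genes tested, edgeR's quasi-likelihood test called 1 gene (0.00601%) at an adjusted p under 0.05, the ribosomal protein gene Rpl26, which was higher in PKO. The second lowest adjusted p was 0.0539, shared by 355 genes, 268 higher and 87 lower in PKO. At an adjusted p under 0.1 the count was 1921 (11.6%), of which 1340 (8.06%) were higher and 581 (3.49%) lower, and 4174 (25.1%) had an unadjusted p under 0.05, 15.4% of all genes higher and 9.74% lower. The count at 0.05 depended on the method and on single libraries: in the same 12 libraries DESeq2 called 2327 (9.23% higher, 4.76% lower) and limma voom, which here also weighted libraries by quality, 1883 (7.37% higher, 3.95% lower), and edgeR called 2998 without PKO 3 (11.9% higher, 5.57% lower) and 1 without WT 1 (0.00586%). Because of this step just above 0.05, members of gene lists are counted below at an adjusted p under 0.1, beside the shares of all genes just given, and no single gene other than Rpl26 is called changed.

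Rpl26 (ENSMUSG00000060938), a protein of the large ribosomal subunit known to bind Trp53 mRNA and favour its translation, was at 30.3, 32.6 and 40.8 CPM in WT and at 811, 491 and 616 CPM in PKO. The groups were far apart, at 34.6 ± 5.54 against 640 ± 161 CPM (SD, n = 3 each), and the log2 fold change was 4.21 (SE 0.27, adjusted p = 0.000203). The same split held in the other young groups, at 51.1 to 61.7 CPM in WKO and 568 to 929 CPM in DKO, where DKO minus WKO gave 3.68 (adjusted p = 0.000606), the only call of that comparison among 16627 genes (0.00601%). Its value must be read with that of Gm15772, a processed pseudogene of Rpl26 on chromosome 5, which was looked up after the values were seen. In the GENCODE M21 transcripts, the 438 bases of Gm15772-201 aligned to Rpl26-201 without a gap and matched it at 436 bases. The substitutions, counted from base 1 of Rpl26-201 with the Rpl26 base first, were C224T and T335C. The stretches around them are shown because no other base within the aligned stretch separates reads of the gene from reads of the copy, with the differing base in capitals:
Rpl26-201, bases 210 to 238: gttcaggttgttcgCggacactacaaagg
Gm15772-201, bases 163 to 191: gttcaggttgttcgTggacactacaaagg
Rpl26-201, bases 321 to 349: ggcacaaccgtccaTgtgggcatccaccc
Gm15772-201, bases 274 to 302: ggcacaaccgtccaCgtgggcatccaccc

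The pseudogene mirrored the gene. Gm15772 (ENSMUSG00000062353) was at 342, 440 and 455 CPM in WT and at 1.04, 451 and 0.402 CPM in PKO. It took 91.9%, 93.1% and 91.8% of the counts of the pair in WT, but 0.128% in PKO 1, 47.9% in PKO 2 and 0.0652% in PKO 3, with exact 95% binomial intervals of 0.073% to 0.207%, 46.9% to 48.8% and 0.0282% to 0.129% that cover counting error only. PKO 2 alone thus lay near an even split. WKO libraries had shares of 92.9% to 93.7%, DKO 1 and 2 had 0.127% and 0.309%, and the library labelled DKO 3 had 43.5%. Among the carcinoma libraries the share was 0.0546% to 0.208% in 5 and 92.9% in the library labelled DKO cSCC 3, whose Trp53 level of 38.1 CPM without TMM scaling was within the range of the WT young libraries, 37.2 to 42.7 CPM. The share therefore followed the p53fl/fl label in all but these 3 libraries, PKO 2, the library labelled DKO 3 and the library labelled DKO cSCC 3.

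Counted together, the pair was at 372, 472 and 496 CPM in WT and at 812, 943 and 616 CPM in PKO. The groups did not overlap, with 447 ± 65.8 against 791 ± 164 CPM (SD, n = 3 each), but the log2 fold change was 0.82 (SE 0.22, adjusted p = 0.063), no gene of 16626 passed 0.05 in that fit, and 4173 had an unadjusted p under 0.05. DKO minus WKO for the sum was 0.08 (SE 0.21, adjusted p = 0.899). The call of Rpl26 was therefore not held by the sum, whose value was close to the 0.74 median of 84 cytoplasmic ribosomal protein genes. Rpl26 lies on chromosome 11, as Trp53 does, with 29 tested genes between them in the GENCODE order. Of the 100 tested genes nearest to Trp53, 50 on each side, 9 were higher and 2 lower at an adjusted p under 0.1, or 11%, a share near the 11.6% of all genes.

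The p53 target list, drawn from widely used targets, did not move down with Trp53. Of 56 genes, 53 were tested and 33 had a positive log2 fold change, with a median of 0.16 against -0.0066 over all genes tested. At an adjusted p under 0.1, 6 were higher (of 8.06% among all genes) and 1 was lower (of 3.49%). Summed, the targets were at 1468 to 1535 CPM in WT and at 2283, 3741 and 1760 CPM in PKO. All PKO libraries were above all WT libraries in that sum, and PKO 2 was the highest of the 6. The separation rested on Perp, the desmosome gene described below: without it the sums were 1364, 1182 and 1093 CPM in WT and 1300, 1941 and 1398 CPM in PKO, and the groups overlapped. With Perp included, the sums were 2858 to 3311 CPM in WKO, whose Trp53 alleles are not floxed, and 3537 to 4555 CPM in DKO. Every WKO and DKO library was thus above every WT library in the full sum.

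Cdkn1a (ENSMUSG00000023067), the inhibitor of cyclin-dependent kinases and the most studied p53 target, was at 55.9, 49.4 and 40.5 CPM in WT and at 77, 252 and 55.2 CPM in PKO. PKO 1 and 2 were above every WT library and PKO 3 lay just below WT 1, with a log2 fold change of 1.40, SE 0.47 and adjusted p = 0.108. The p53 response element in 1 of its 2 listed promoters is shown because it is the textbook site of p53 binding at this gene. This RefSeq promoter is GRCm38.p6 chr17:29090729-29091028, plus strand, 1 of 2 for the gene. It holds a pair of CATG cores 6 bases apart, in capitals with the bases between them, starting 48 bases before that promoter's start site:
Cdkn1a promoter: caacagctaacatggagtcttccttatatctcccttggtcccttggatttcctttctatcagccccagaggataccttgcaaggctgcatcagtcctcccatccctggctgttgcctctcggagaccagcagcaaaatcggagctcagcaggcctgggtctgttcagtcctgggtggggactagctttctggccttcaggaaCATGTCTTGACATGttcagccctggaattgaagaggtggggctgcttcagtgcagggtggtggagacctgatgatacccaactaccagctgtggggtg
Searched on both strands with any bases between the cores, that motif was found in 0.712% of 32851 promoters of this length, and among the 45 target genes with a promoter in the table it was found in Cdkn1a alone.

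The targets higher at an adjusted p under 0.1 were Tob1, Plk2, Ephx1, Perp, Abhd4 and Sertad1, and Apaf1 was lower. Tob1, an antiproliferative gene, was the most even, at 38.7, 38.4 and 34.9 CPM in WT and 65, 73.9 and 72.7 CPM in PKO (log2 fold change 0.92, SE 0.15, adjusted p = 0.0539). Plk2, a polo-like kinase, was at 41.5, 36.9 and 26 CPM in WT and 109, 132 and 52.3 CPM in PKO (1.49, SE 0.32, adjusted p = 0.0539). Perp, a desmosome protein that p53 and p63 both induce, was at 157, 353 and 375 CPM in WT and 984, 1800 and 362 CPM in PKO, so PKO 3 overlapped WT (1.83, SE 0.51, adjusted p = 0.0693). Apaf1, the scaffold of the apoptosome, ran the other way without overlap, at 40.8, 24.1 and 20.2 CPM in WT and 5.38, 9.03 and 12.7 CPM in PKO (-1.65, SE 0.36, adjusted p = 0.0539).

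The other core targets did not pass. Mdm2, the ligase that degrades p53, was at 55.2, 41.7 and 35 CPM in WT and 30.6, 86 and 41 CPM in PKO, with PKO libraries on both sides of the WT range (0.25, SE 0.32, adjusted p = 0.651). The pro-apoptotic Bax was at 18, 23.5 and 20.7 CPM in WT and 11.4, 10.5 and 19.7 CPM in PKO (-0.58, SE 0.28, adjusted p = 0.229). Bbc3, which encodes PUMA, had a log2 fold change of -0.20, Ccng1, a cyclin of the p53 feedback loop, one of -0.16, Zmat3, an RNA-binding target, one of -0.03, and Sesn2, a stress-induced sestrin, one of 1.13, with adjusted p between 0.115 and 0.953. Without PKO 3 and at an adjusted p under 0.05, 7 of 53 targets were higher and 4 lower, where 11.9% and 5.57% of all genes were. Without WT 1 and PKO 3 together 7 were higher and 1 lower, against 8.78% and 2.63%. In DKO minus WKO, which shares no library with PKO minus WT, 17 of 53 targets were positive with a median of -0.19, and none passed an adjusted p under 0.1, as 27 of all genes did (0.162%). Here and below, that comparison includes the library labelled DKO 3, which held 21.9 CPM of Trp53 against 3.47 and 3.42 CPM in DKO 1 and 2.

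**Figure D2:**
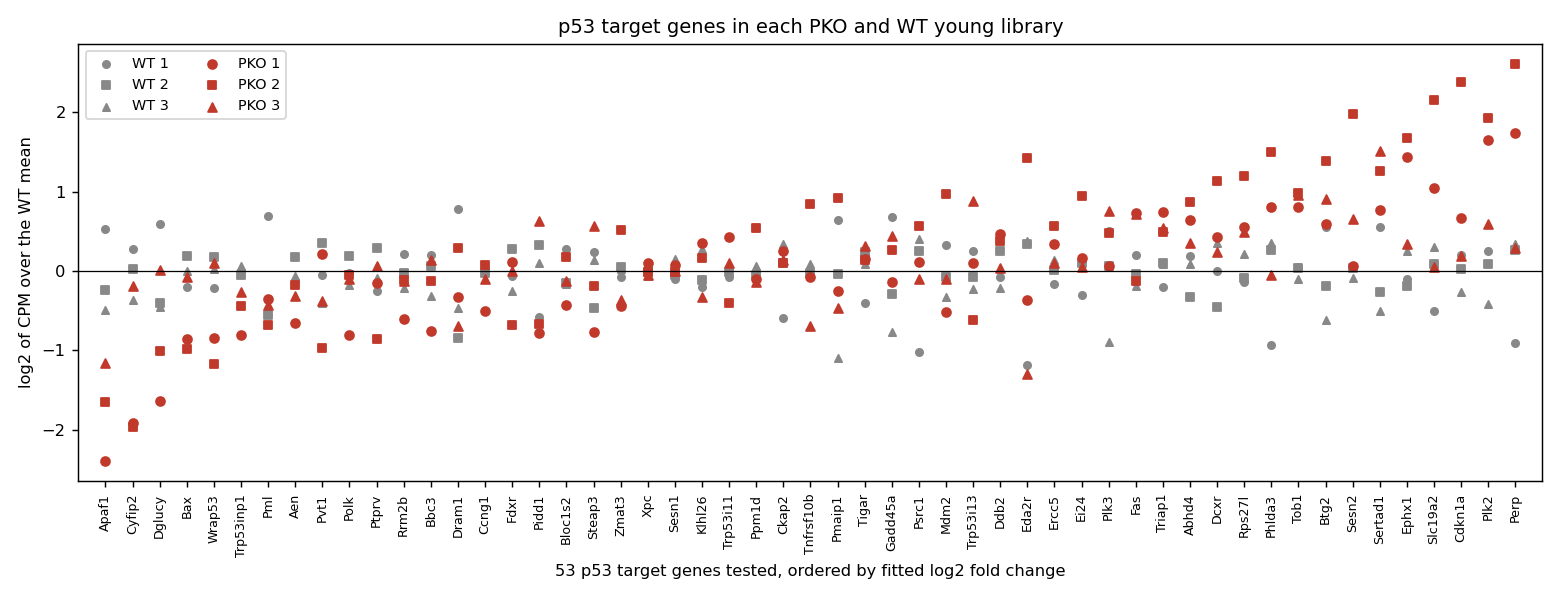
Log2 of the level (CPM) over the WT mean for 53 p53 target genes, ordered by the fitted log2 fold change, with WT libraries in grey and PKO libraries in red, marker shapes giving the replicate. Most genes lie near 0 in every library, Apaf1 lies below in all PKO libraries, and PKO 2 is the highest library for many of the genes on the right, such as Cdkn1a at 252 CPM.

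Among 26 tested relatives and regulators of p53, 13 were positive. Ppp1r13l, which encodes the p53 inhibitor iASPP, was at 20.7, 45.5 and 46.9 CPM in WT and 156, 198 and 48.7 CPM in PKO (log2 fold change 1.83, SE 0.45, adjusted p = 0.0571). Trp53bp2, the p53-binding ASPP2, was at 32.8, 41.4 and 42.8 CPM in WT and 100, 120 and 43.1 CPM in PKO (1.17, SE 0.31, adjusted p = 0.0644). For both genes PKO 3 sat just above WT, far below PKO 1 and 2. Trp73, the family member p73, and Kmt5a, a histone and p53 methyltransferase, were also higher at an adjusted p under 0.1, and the checkpoint kinase Atr was lower, at 23.8, 31.2 and 29 CPM in WT against 20.1, 15.1 and 18.8 CPM in PKO (-0.64, SE 0.16, adjusted p = 0.0571). Trp63 was at 66.7, 164 and 199 CPM in WT and 475, 497 and 154 CPM in PKO (1.39, SE 0.47, adjusted p = 0.109).

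Few genes of the processes that p53 controls passed with all libraries. Of 38 DNA damage response and repair genes, 19 were positive and none passed an adjusted p under 0.1. Of 45 cell cycle genes, 23 were positive, and at an adjusted p under 0.1 none was higher and 2 were lower, a share near the 3.49% of all genes. These 2 were the pocket proteins Rbl2 and Rb1, which restrain entry into S phase, with log2 fold changes of -0.68 (SE 0.21, adjusted p = 0.0847) and -0.47 (SE 0.15, adjusted p = 0.0885). The cell cycle list depended on the libraries: 14 of 45 were positive without PKO 3, 10 without WT 1 and 5 without both. Without both the median was -0.50 and 6 were lower at an adjusted p under 0.05, where 2.63% of all genes were. In DKO minus WKO 6 of 45 were positive, with a median of -0.55. Of 28 apoptosis regulators, 11 were positive, and at an adjusted p under 0.1, 1 was higher and 3 were lower, where 8.06% and 3.49% of all genes were. Bok, a pro-apoptotic BCL2 relative, was higher, while Xiap, a caspase inhibitor, Bcl2, an anti-apoptotic protein, and Bcl2l11, which encodes the pro-apoptotic BIM, were lower. Xiap was at 69.7, 62.1 and 59.2 CPM in WT and 40.1, 36.8 and 41.4 CPM in PKO, without overlap (-0.69, adjusted p = 0.0539). Bcl2 was at 114, 65.6 and 67.9 CPM in WT and 22.2, 16.9 and 55.2 CPM in PKO (-1.39, adjusted p = 0.0831).

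Keratinocyte genes were far higher in PKO 1 and 2 than in WT, and close to WT in PKO 3, where the median difference from the WT mean, in log2(CPM + 0.5), was 0.24 for basal and 0.21 for differentiated genes. Of 24 tested basal keratinocyte genes, 22 were positive and 15 higher at an adjusted p under 0.1, and the median of their log2 fold changes was 1.41. Of 36 differentiated keratinocyte genes, 31 were positive and 18 higher, with a median of 2.29. None of either list was lower. Summed, basal genes were at 5005 to 5870 CPM in WT, 21990 and 20370 CPM in PKO 1 and 2, and 5807 CPM in PKO 3. Differentiated genes were at 840 to 1934 CPM in WT and at 5629, 20700 and 2036 CPM in PKO. PKO 2 thus held over 3 times the sum of PKO 1. In WKO, whose Trp53 alleles are not floxed, basal sums were 17590 to 26900 CPM and differentiated sums 12570 to 16750 CPM. In DKO they were 16410 to 19500 CPM and 18420 to 29550 CPM. Every WKO and DKO library was thus above every WT library for both lists.

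Krt14, the basal keratin whose promoter drives the Cre, was at 410, 506 and 550 CPM in WT and 4343, 3149 and 749 CPM in PKO (log2 fold change 2.49, SE 0.54, adjusted p = 0.0539). Col17a1, the hemidesmosome collagen, was at 207, 239 and 362 CPM in WT and 2249, 2362 and 307 CPM in PKO (2.61, SE 0.62, adjusted p = 0.056), so PKO 3 lay within WT. Krt10, the keratin of the first suprabasal layers, was at 213, 581 and 426 CPM in WT and 1658, 7277 and 631 CPM in PKO (2.97, SE 0.77, adjusted p = 0.0617). Sprr1a, a cornified envelope precursor, was at 7.1, 7.93 and 5.13 CPM in WT and 61.1, 259 and 14.5 CPM in PKO (4.05, SE 0.86, adjusted p = 0.0539). Postn, a matricellular protein, was the exception in which PKO 3 kept pace, at 28.6, 36.9 and 110 CPM in WT and 240, 231 and 201 CPM in PKO (1.94, SE 0.42, adjusted p = 0.0539).

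Epithelial junction genes followed the same libraries. Of 35 tested, 31 were positive and 22 higher at an adjusted p under 0.1, with none lower and a median of 1.57. Their sum was at 2502 to 4616 CPM in WT and 10950, 17020 and 4727 CPM in PKO. Junction sums were also above every WT library in WKO, at 13120 to 15650 CPM, and in DKO, at 16180 to 21770 CPM. Cldn4, a tight junction claudin, was at 1.62, 7.29 and 5.43 CPM in WT and 59.5, 355 and 15.4 CPM in PKO (log2 fold change 4.91, SE 1.04, adjusted p = 0.0539). Ovol1, a transcription factor of epidermal differentiation, was at 6.29, 18.9 and 16.5 CPM in WT and 104, 391 and 30.3 CPM in PKO (3.66, SE 0.81, adjusted p = 0.0539). Cdh1, E-cadherin, was at 261, 298 and 303 CPM in WT and 617, 789 and 410 CPM in PKO (1.08, SE 0.22, adjusted p = 0.0539), without overlap. Gjb2, the gap junction connexin 26, was at 30.4, 102 and 133 CPM in WT and 25.2, 22.3 and 161 CPM in PKO (-0.34, adjusted p = 0.838), with PKO 3 again beside WT. At an adjusted p under 0.05, 19 basal, 22 differentiated and 26 junction genes were higher without PKO 3, against 11.9% of all genes. PKO 3 was the PKO library nearest to WT in these lists, so leaving it out raises the PKO side by design. Without WT 1 and PKO 3 together, 18, 18 and 25 were higher, against 8.78%. None was higher with all libraries or without WT 1, where 0.00601% and 0.00586% of all genes were. The medians without WT 1 were 1.55, 2.15 and 1.34.

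Most markers of blood, pigment and immune cells were lower in PKO. All 8 erythrocyte markers tested were lower at an adjusted p under 0.1, with sums of 897 to 3746 CPM in WT and 24.3, 28.2 and 253 CPM in PKO, and the anion exchanger Slc4a1 at 0 in PKO 1 and 3. None of 18 macrophage, monocyte and neutrophil markers was positive and 7 were lower, with sums of 260 to 1954 CPM in WT, the highest in WT 1, and 28.9, 120 and 172 CPM in PKO, and their median of -2.90 was -1.77 without WT 1. Of 15 melanocyte and Schwann markers, 14 were negative and 5 lower, with sums of 576 to 772 CPM against 196 to 270 CPM. The sum of 30 lymphocyte markers, of T cells, NK cells and dendritic epidermal T cells, was 2988 to 3756 CPM in WT, 1164 and 428 CPM in PKO 1 and 2, and 5607 CPM in PKO 3, the highest of the 6. None of the 29 tested passed. Without PKO 3 none of the 29 was positive, the median was -2.30 and 6 were lower at an adjusted p under 0.05, where 5.57% of all genes were. Without WT 1 and PKO 3, 5 were lower, where 2.63% of all genes were. Leaving out the PKO library with the highest sum lowers the PKO side by design, so this direction is no separate support. In PKO 3 the T cell receptor chain Trdc, which marks dendritic epidermal T cells, was at 422 CPM, against 136 to 216 CPM in WT and 96.8 and 35.6 CPM in PKO 1 and 2. In PKO 3 the erythrocyte, macrophage and melanocyte sums were below every WT library while the lymphocyte sum was above. These lists thus did not move together. In all WKO and DKO libraries each of these sums was below every WT library. Erythrocyte sums were 15.4 to 42.4 CPM in WKO and 12.55 to 22.7 CPM in DKO. Melanocyte sums were 140 to 203 CPM and 141.5 to 212 CPM. Macrophage sums were 25.6 to 233 CPM and 19.7 to 157 CPM. Lymphocyte sums were 93.7 to 1515 CPM and 170.5 to 502 CPM. WT thus stood apart from WKO too, whose Trp53 alleles are not floxed. The part of these cells in the keratinocyte, junction and p53 target values was not tested.

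Other marker lists were less even. Muscle and adipocyte markers had 3 of 11 lower at an adjusted p under 0.1, where 3.49% of all genes were, at sums of at most 112 CPM. Fibroblast markers summed to 1544 to 3188 CPM in WT and 949, 4817 and 4156 CPM in PKO with none passing. Langerhans and dendritic cell markers had 5 of 18 positive, 9 without WT 1, and the 1 that was higher, Epcam, is also an epithelial gene. Endothelial and mural markers had 5 of 18 positive and none passing, and Merkel cell markers 2 of 4. Of the 3 sex-linked genes tested, 2 were lower at an adjusted p under 0.1, both Y-linked and both highest in WT 1.

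**Figure D3:**
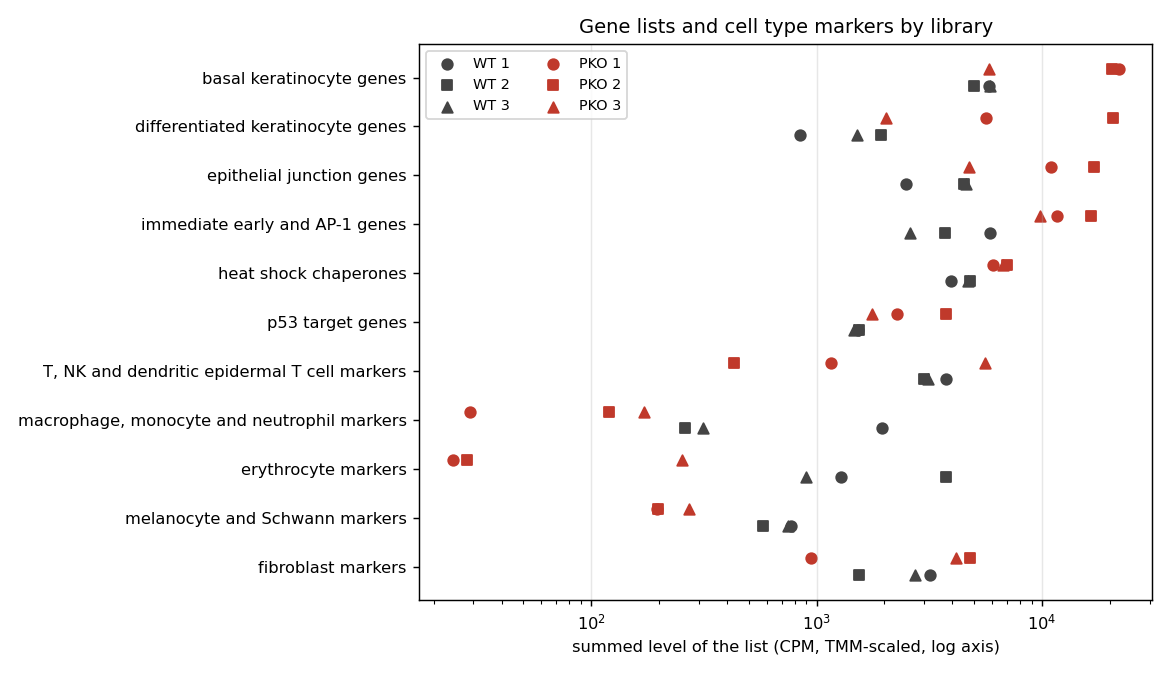
Summed level of 11 gene lists (CPM after TMM scaling, log axis) in each WT (dark) and PKO (red) library, marker shapes giving the replicate. PKO 3 lies beside WT for basal keratinocyte genes, at 5807 CPM, and above every WT library for T cell markers, at 5607 CPM, while immediate early genes and heat shock chaperones separate all PKO libraries from all WT libraries.

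Immediate early and AP-1 genes, which growth factors and cell stress, tissue dissociation included, switch on within minutes, were higher in all PKO libraries, PKO 3 included. Of 32 tested, 30 were positive and 21 higher at an adjusted p under 0.1, with a median of 1.62, none lower, and 22 without overlap between the groups, where 13.4% of all genes were higher without overlap. Their sum was at 2600 to 5851 CPM in WT and 11680, 16570 and 9781 CPM in PKO. With WT 1 and PKO 3 left out, 25 of 32 were higher at an adjusted p under 0.05, against 8.78% of all genes.

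Fos, a partner of Jun in the AP-1 factor, was at 757, 396 and 262 CPM in WT and 1475, 1892 and 1661 CPM in PKO (log2 fold change 1.83, SE 0.40, adjusted p = 0.0539). Jun was at 516, 438 and 365 CPM in WT and 1646, 1760 and 1169 CPM in PKO (1.79, SE 0.30, adjusted p = 0.0539). Egr1, a zinc finger factor of the growth response, was at 299, 181 and 194 CPM in WT and 1221, 1343 and 773 CPM in PKO (2.31, SE 0.38, adjusted p = 0.0539). In each of these the lowest PKO library was well above the highest WT library. Atf3, a stress-induced factor, was at 101, 45.4 and 9.97 CPM in WT and 610, 859 and 242 CPM in PKO (3.45, SE 0.73, adjusted p = 0.0539). Fosl1, the AP-1 subunit FRA-1, had the largest log2 fold change of the list, 5.82 (SE 1.12, adjusted p = 0.0539), at 3.87, 2.43 and 0.708 CPM in WT and 60.2, 326 and 10.1 CPM in PKO. Klf2 and Dusp2, both also expressed in lymphocytes, were the only members with negative values, -0.91 and -1.04, and did not pass.

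Maff, a small Maf factor, was nearly the same in the 3 PKO libraries, at 43.9, 61.7 and 51.2 CPM, and lower in WT, at 15.6, 10.4 and 6.61 CPM (log2 fold change 2.26, SE 0.36, adjusted p = 0.0539). Its promoter is shown as an example of a member with a cAMP response element, a site through which such genes are known to be switched on. The RefSeq promoter, GRCm38.p6 chr15:79347270-79347569, plus strand, 1 of 3 for the gene, holds TGACGTCA in capitals, starting 29 bases before the start site:
Maff promoter: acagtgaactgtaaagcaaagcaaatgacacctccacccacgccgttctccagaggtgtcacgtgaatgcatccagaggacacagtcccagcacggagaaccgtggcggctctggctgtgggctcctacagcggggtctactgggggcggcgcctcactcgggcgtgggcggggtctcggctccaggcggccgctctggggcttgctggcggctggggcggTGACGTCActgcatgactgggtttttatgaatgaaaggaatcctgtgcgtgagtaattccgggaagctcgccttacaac
The motif, which is its own reverse complement, was found in 1.79% of 32851 promoters, in 3 of 25 immediate early genes with a promoter in the table (Dusp1, Maff and Ppp1r15a) and in 3 of 45 p53 targets (Btg2, Plk2 and Ppm1d).

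The other young groups place these levels. WKO libraries, whose Trp53 alleles are not floxed, held 1196, 489 and 900 CPM of Egr1 and 34.5, 15.8 and 23.4 CPM of Maff, and DKO libraries 2069, 1335 and 1348 CPM and 64.1, 44.4 and 66.1 CPM. Every WKO and DKO library was thus above every WT library for both genes. In DKO minus WKO all 32 members were positive, at a median of 1.17 (log2) against -0.03 over all genes tested, and none passed an adjusted p under 0.1. The difference between the effects in the Wwox-deleted and the other mice was tested for every gene: none of 16627 passed 0.05 (0%), and 3382 had an unadjusted p under 0.05 (20.3%).

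**Figure D4:**
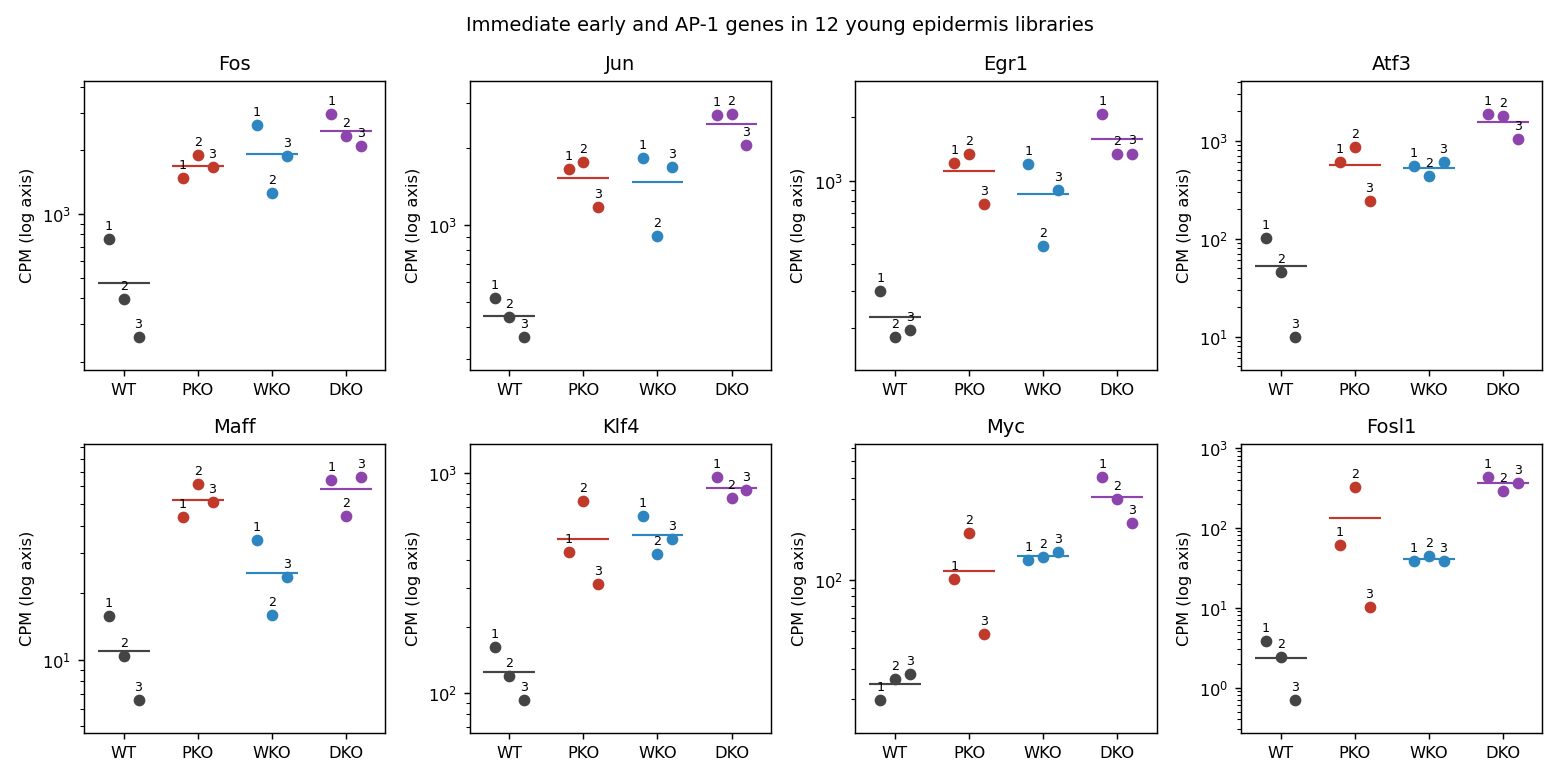
Levels (CPM, log axes) of 8 immediate early and AP-1 genes in 12 young libraries, points numbered by replicate, lines at group means. All PKO libraries lie above all WT libraries in each panel, as for Maff at 43.9 to 61.7 CPM against 6.61 to 15.6 CPM, and WKO and DKO libraries lie above WT too.

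Heat shock chaperones and wound genes were partly higher. Of 22 chaperones, 19 were positive and 8 higher at an adjusted p under 0.1, where 8.06% of all genes were, with none lower. Their sums were 3962 to 4786 CPM in WT and 6091, 7020 and 6684 CPM in PKO. They were 6303 to 6888 CPM in WKO, whose Trp53 alleles are not floxed, and 7156 to 8991 CPM in DKO. Every WKO and DKO library was thus above every WT library. Hspa1b, an inducible HSP70 with a near-identical neighbour, Hspa1a, between which counts may have been divided, was at 183, 202 and 181 CPM in WT and 496, 1004 and 444 CPM in PKO (log2 fold change 1.78, SE 0.32, adjusted p = 0.0539). Dnajb1, its co-chaperone, was at 66.7, 68.2 and 57.4 CPM in WT and 180, 238 and 128 CPM in PKO, without overlap (adjusted p = 0.0539). The constitutive Hspa8 did not separate, its log2 fold change being 0.27 (SE 0.23, adjusted p = 0.478).

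Of 22 stress and wound keratinocyte genes, 7 were higher and 4 lower at an adjusted p under 0.1, where 8.06% and 3.49% of all genes were. The list summed to 210 to 447 CPM in WT, 558 to 1483 CPM in PKO, 639 to 916 CPM in WKO and 1626 to 3576 CPM in DKO. WT was thus below every library of the other genotypes. Among the higher members were Hbegf and Areg, which encode ligands of the epidermal growth factor receptor. Hbegf had means of 62.5 CPM in WKO and 140 CPM in DKO. Hbegf was at 4.62, 6.15 and 3.19 CPM in WT and 61.6, 113 and 16.4 CPM in PKO (log2 fold change 3.78, SE 0.59, adjusted p = 0.0539), and Areg at 2.54, 5.36 and 0.944 CPM in WT and 14.4, 65.2 and 13.9 CPM in PKO (3.41, SE 0.77, adjusted p = 0.0539). Krt17, a keratin of wounds and hair follicles, was at 89.5, 204 and 140 CPM in WT and 1232, 1005 and 450 CPM in PKO (2.63, SE 0.47, adjusted p = 0.0539). The wound keratin Krt6a did not pass, at 21.8, 11.2 and 5.43 CPM in WT and 29.2, 17.1 and 9.8 CPM in PKO. The 4 lower members, S100a8, S100a9, Il1b and Slpi, are also expressed by neutrophils, and each was highest in WT 1, such as S100a9 at 115 CPM there against 4.86 and 4.13 CPM in WT 2 and 3.

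Interferon-stimulated genes depended on WT 1. With all libraries, 8 of 35 were positive, with a median of -1.16. At an adjusted p under 0.1, 1 was higher and 4 were lower, where 8.06% and 3.49% of all genes were. Rsad2, the antiviral viperin, was at 340 CPM in WT 1 against 28 and 2.01 CPM in WT 2 and 3, and at 2.14 to 4.22 CPM in PKO. The median turned to 0.62 without WT 1, with 25 of 35 positive, and it was 0.32 without WT 1 and PKO 3. The exception was Ifi27, a mitochondrial interferon-induced protein, which had even WT levels of 7.04, 8.08 and 7.2 CPM and stood at 27.3, 33.2 and 15.3 CPM in PKO (log2 fold change 1.76, SE 0.27, adjusted p = 0.0539). Of 26 chemokines and cytokines, 14 were positive and 5 higher, where 8.06% of all genes were. Their median of 0.42 was 0.88 without WT 1 (21 positive) and 0.02 without PKO 3. Ccl27a, a keratinocyte chemokine, was at 0.808, 1.64 and 3.01 CPM in WT and 14.5, 21.3 and 17 CPM in PKO (3.27, SE 0.69, adjusted p = 0.0539), with PKO 3 between the other PKO libraries.

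Small shifts ran through ribosomal and respiratory genes. Of 84 cytoplasmic ribosomal protein genes tested, a family chosen after its values were seen, 83 were positive and 54 higher at an adjusted p under 0.1, with none lower. The sum of all 90 genes of the family, tested or not, was at 18820 to 24140 CPM in WT and 33790, 46090 and 30510 CPM in PKO. That sum was 41290 to 43940 CPM in WKO and 31490 to 46600 CPM in DKO, also above every WT library. Ribosomal protein genes have many pseudogenes, between which the counts may have been divided, as for Rpl26. All 35 nuclear subunits of oxidative phosphorylation were positive, with a median of 0.43. Of these, 9 were higher, where 8.06% of all genes were, and 29 were higher without overlap, where 13.4% of all genes were. The list summed to 1560 to 1923 CPM in WT, 2229 to 2550 CPM in PKO, 2438 to 2875 CPM in WKO and 1725 to 2386 CPM in DKO. Cox5b, a subunit of complex IV, was at 62.6, 66.2 and 78.6 CPM in WT and 116, 123 and 98.1 CPM in PKO (log2 fold change 0.70, SE 0.18, adjusted p = 0.0597). In DKO minus WKO, 1 of the 35 was positive, with a median of -0.25. The mitochondrially encoded genes, also chosen after their values were seen, had 1 of 16 positive and none passing, with a median of -0.43. That sign depended on PKO 3: without it 6 of 16 were positive, with a median of -0.05.

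In metabolism, 5 of 30 glycolysis and hypoxia genes were higher at an adjusted p under 0.1, where 8.06% of all genes were. Among the 5 was Aldoc, an aldolase, at 8.02, 5.29 and 8.32 CPM in WT and 21.8, 16.8 and 17.7 CPM in PKO (log2 fold change 1.38, SE 0.28, adjusted p = 0.0539). NRF2 and glutathione genes had 4 higher and 1 lower of 25, where 8.06% and 3.49% of all genes were. Prdx1, a peroxiredoxin, was at 86.8, 73.8 and 93.9 CPM in WT and 148, 167 and 121 CPM in PKO (0.77, SE 0.19, adjusted p = 0.0571), and the cystine transporter Slc7a11 was lower and highest in WT 1. Sebaceous gland and lipid genes had 24 of 29 positive and 6 higher, where 8.06% of all genes were. The 6 were led by Srebf1, the regulator of fatty acid synthesis, at 53.1, 51.2 and 63.9 CPM in WT and 129, 105 and 86.8 CPM in PKO (0.93, SE 0.21, adjusted p = 0.0539).

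Hair follicle genes had 4 higher and 1 lower of 35, where 8.06% and 3.49% of all genes were. Most were negative, 22 against 13 positive, with a median of -0.34, unlike the higher members named next. Sox9, a factor of follicle stem cells, was at 24.8, 30.2 and 33 CPM in WT and 206, 88.5 and 53.6 CPM in PKO (log2 fold change 1.98, SE 0.43, adjusted p = 0.0539), and Krt79, a keratin of the upper follicle, at 80.2, 213 and 131 CPM in WT and 1220, 1136 and 409 CPM in PKO (2.70, SE 0.53, adjusted p = 0.0539). Both were without overlap. Notch pathway genes had 1 of 19 higher, the ligand Jag2, where 8.06% of all genes were. None of 26 mesenchymal genes passed, and 9 were positive, with a median of -0.20 that turned to 0.26 without WT 1.

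The genes outside the lists with the smallest p and no overlap were chosen by rule and are given as values, each with an adjusted p of 0.0539. Gpld1, a phospholipase that releases lipid-anchored proteins, was at 4.21, 5.22 and 4.78 CPM in WT and 30.6, 23.9 and 13.5 CPM in PKO, with a log2 fold change of 2.26 (SE 0.29). Pim3, a survival kinase, was at 19.2, 24.3 and 19.2 CPM in WT and 83.3, 152 and 55.2 CPM in PKO (2.21, SE 0.33). Both were also high in WKO, with means of 30.2 and 86.5 CPM, so WT stood apart from all of the other genotypes. Baiap2, an actin regulator, Itih5, a hyaluronan-binding matrix protein, and Cracr2b, a calcium channel regulator, had log2 fold changes of 1.24, 1.49 and 1.85. The rule also took Hbegf, Maff, Egr1, Ifi27 and Klf4, a factor of epidermal barrier formation at 162, 120 and 93.5 CPM in WT and 438, 745 and 312 CPM in PKO.

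The lower end was led by chemosensory receptor genes, which are not known for a role in epidermis. The rule took Vmn1r76, Olfr639, Olfr1247, Vmn2r53, Olfr398, Olfr839-ps1 and Olfr365, beside Glrb, a glycine receptor subunit, Mdfic, a transcriptional modulator, and Klhl28, a kelch family member. Vmn2r53 was at 181, 235 and 257 CPM in WT and 43.8, 56.1 and 35.9 CPM in PKO (log2 fold change -2.31, SE 0.40, adjusted p = 0.0539), and Olfr639 at 42.3, 49 and 66.3 CPM in WT and 10.4, 11.9 and 8.19 CPM in PKO (-2.37, SE 0.36, adjusted p = 0.0539). PKO 3 was the lowest library for both, unlike its place in the keratinocyte lists. Of 202 olfactory and vomeronasal receptor genes tested, a family chosen after these values were seen, 9 were positive and 55 lower at an adjusted p under 0.1, 1 higher, and 131 were lower without overlap, where 14.2% of all genes were. The sum of all 1744 genes of the family, tested or not, was at 1441 to 1860 CPM in WT and 609, 805 and 493 CPM in PKO. In WKO it was at 470 to 765 CPM and in DKO at 761 to 1730 CPM.

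**Figure D5:**
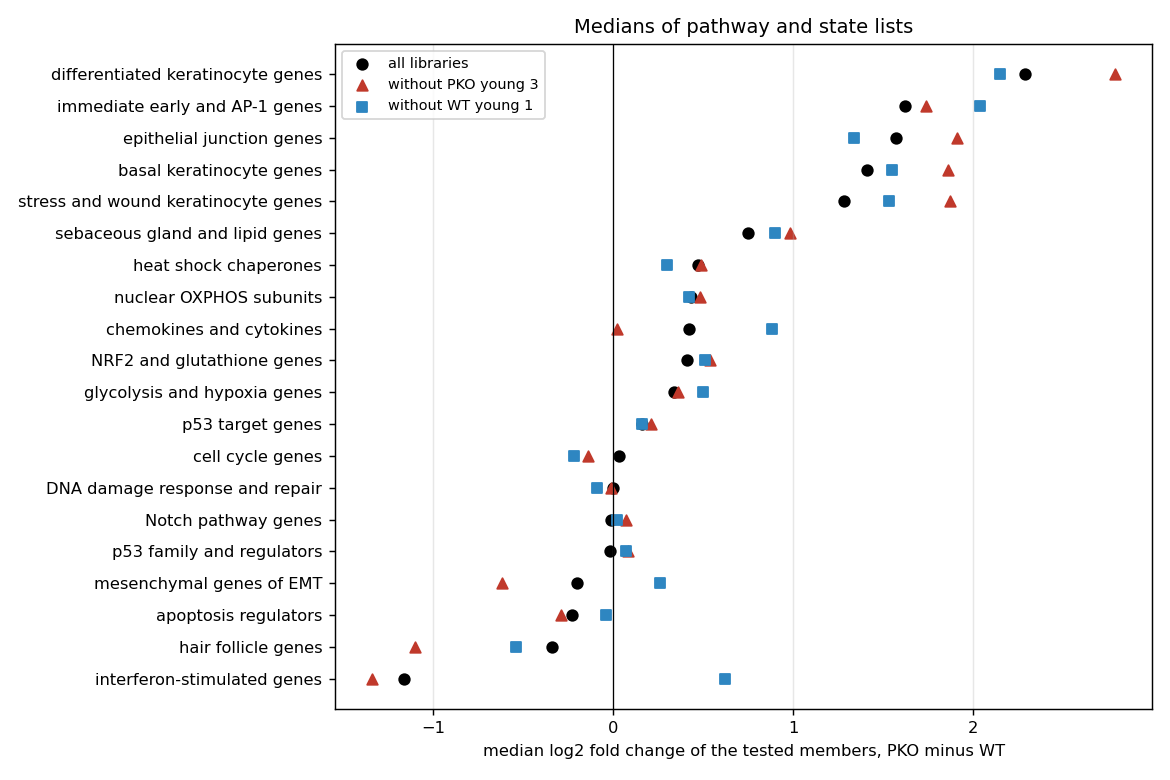
Median log2 fold change (PKO minus WT) of the tested members of 20 pathway and state lists with all libraries (black circles), without PKO 3 (red triangles) and without WT 1 (blue squares). Differentiated keratinocyte genes have the highest median, 2.29, and interferon-stimulated genes turn from -1.16 to 0.62 when WT 1 is left out, while immediate early genes stay between 1.62 and 2.04 in these 3 fits.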

How the data were processed

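The table that the authors deposited holds estimated counts (expected counts) as whole numbers, for 51123 genes in 20 libraries. Tools listed in the submitters' processing notes are Salmon 0.13.1, Trim Galore 0.4.1, DESeq2 1.28.1 and FastQC 0.11.5, and the build listed is mm39. Each library started from 5 ng RNA and a stranded kit for total RNA, per the labels' protocols. How transcripts were summed to genes, and any use of molecular identifiers, are not given in the sources used here. A symbol was found for 48246 genes in the reference tables.

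The 12 young libraries were fitted together with edgeR 4.0.16 (R 4.3.3): TMM scaling, filterByExpr defaults, a mean per genotype, the quasi-likelihood F test and Benjamini-Hochberg adjustment over 16627 genes at 0.05. Levels are CPM over TMM-scaled library sizes. Sums of a list or family include its members that were not tested. Alternatives included limma 3.58.1 and DESeq2 1.42.0. The edgeR step was tested on simulated data.

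The members and 30 gene lists were chosen with earlier results of these data known. Named were Trp53, Wwox, genes past 0.05 by size, filled to 10 each way by smallest p, with no overlap of the groups and a higher-group mean of at least 5 CPM (leaving out small RNAs, genes of ribosomal proteins, mitochondrially encoded, antigen receptor and predicted genes), and up to 4 members per list by smallest p. Other genes were chosen after their values were seen. P-values measure the spread between these libraries. Pairing of the libraries by replicate number was not shown, and the fit used none.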

Additional observations from a re-analysis of the deposited data

How the results depend on the processing

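The count of genes past the threshold, 1 in the reported fit, came to 0 with only the 6 libraries compared (3125 at an unadjusted p under 0.05), 3 with all 20 libraries, 3 with RLE scaling, 3 with TMMwsp scaling, 990 with no low-count filter, 447 with a minimum of 10 CPM, 2327 with DESeq2, 1883 with limma voom and library quality weights, 459 with mitochondrially encoded genes removed and 1921 at an adjusted p under 0.1. It remained 1 with a robust prior and with the test against a log2 change of 1. Leaving out 1 library at a time gave 1 to 2998, the highest without PKO 3. Alternatives chosen after seeing the data gave 0 with Rpl26 and Gm15772 counted together, 1 without the library labelled DKO 3 and 1911 with WT 1 and PKO 3 left out together (1471 higher, 440 lower). Splits between higher and lower calls followed, such as 1535 and 792 for DESeq2. The cause of these differences was not tested. With the replicate number as a block, the count was 1, with 3629 genes at an unadjusted p under 0.05. Deviations of same-numbered libraries from their group means correlated at -0.225, 0.0521 and -0.187, which does not show pairing but cannot exclude it.

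Rpl26 kept its log2 fold change of 4.21 in the 6-library and 20-library fits but not its call (adjusted p = 0.0572 and 0.0776), and counted with Gm15772 it was 0.82 (adjusted p = 0.063). Of 482 values for 23 named genes under these alternatives, 0 reversed and 146 newly passed the threshold. The Trp53 log2 fold change was -1.16 and -1.20 with RLE-scaled and unscaled levels, -1.71 with limma voom and quality weights (adjusted p = 0.047), and -1.44 to -0.71 when 1 library was left out, the weakest without PKO 1. Among the medians of 30 lists, 16 were positive, and 13 to 19 when 1 library was left out. Depth limits genes with few counts, and the 3 libraries a group limit every test.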
